A study of Mus musculus with 168 samples.

Results

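The adrenomedullin and endothelin genes encode a pair of opposed peptide signals that act on blood vessels, together with their receptors and processing enzyme, and were followed in 7 regions of the adult mouse brain during hypoxia and reoxygenation. The genes were listed by name (Adm, Calcrl, Ramp2, Ramp3, Edn1, Edn3, Ednra, Ednrb, Ece1 and Nos3), and every probe set annotated to 1 of them alone was used. This gave 19 probe sets of 9 genes, of 45037 probe sets of the array. Ednra, the endothelin A receptor, had no probe set of its own in the annotation and was not analysed here, and neither were 2 probe sets shared by Ramp2 and Vps25.

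Adult male C57BL/6 mice, 8-9 weeks old, breathed 8% O2 for 1 or 3 h and were killed at the end of that exposure (H1 and H3), or breathed 8% O2 for 3 h and then room air for 1, 3, 6, 12 or 24 h (R1, R3, R6, R12 and R24). Control mice (labelled 0hr) spent 3 h in the same chambers in room air and were then returned to their home cages, and this 1 control group served every time point. Cerebral cortex, hippocampus, striatum, thalamus, midbrain, pons-medulla and cerebellum were hybridised singly, with 3 arrays for each region and time point (24 mice by the study's methods, so that the 7 regions of a time point came from the same 3 mice). No allele was altered in any group, and each sample was tissue of mixed cell types.

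Adrenomedullin is a vasodilator peptide cut from the precursor encoded by Adm. It acts on a receptor formed by Calcrl, a G-protein-coupled receptor, together with Ramp2 or Ramp3, single-pass proteins that set which peptide the receptor binds. Endothelin-1, cut from the Edn1 precursor by the endothelin-converting enzyme Ece1, is a strong vasoconstrictor that acts on smooth muscle through Ednra, while Ednrb, abundant on endothelium and astrocytes, can release nitric oxide made by the endothelial synthase Nos3. Edn3 encodes a further endothelin that acts mainly on Ednrb. Both Adm and Edn1 are known targets of hypoxia-inducible factors in other cells.

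The promoter windows of Adm and Edn1 are shown because these were the genes whose levels moved during hypoxia. Each window holds 250 bases before and 50 bases after the RefSeq start (GRCm38.p6), on the plus strand: chr7:110627407-110627706 for Adm and chr13:42301226-42301525 for Edn1. Capitals mark the core letters bound by hypoxia-inducible factors, ACGTG or GCGTG, searched on both strands, and all matches in these windows lay on the reverse strand, so that they read CACGT or CACGC.
Adm: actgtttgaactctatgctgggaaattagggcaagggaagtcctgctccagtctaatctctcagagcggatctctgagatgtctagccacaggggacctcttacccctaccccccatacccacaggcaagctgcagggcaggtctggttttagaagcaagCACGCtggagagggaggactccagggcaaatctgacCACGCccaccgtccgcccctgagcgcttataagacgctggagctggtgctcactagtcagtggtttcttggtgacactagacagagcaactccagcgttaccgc
Edn1: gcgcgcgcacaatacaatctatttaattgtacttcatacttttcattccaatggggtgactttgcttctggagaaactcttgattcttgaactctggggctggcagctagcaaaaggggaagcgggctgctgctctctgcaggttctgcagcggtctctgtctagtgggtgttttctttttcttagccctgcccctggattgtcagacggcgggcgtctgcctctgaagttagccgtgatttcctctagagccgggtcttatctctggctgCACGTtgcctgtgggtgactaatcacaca
Adm held 2 GCGTG matches, at -90 to -86 and at -54 to -50 from the start, and Edn1 held 1 ACGTG match, at 22 to 26 bases after the start. These letters were common: of 32851 mouse promoter windows of this length, 19.6% held ACGTG, 32.4% held GCGTG and 43.8% held either. Of the 10 genes, 8 had windows (11 in all), and 8 of these windows held either motif. The windows of Calcrl (1 GCGTG), Ramp3 (2 GCGTG) and Ednrb (2 GCGTG) held matches as well. Ece1 supplied 3 of the 8 windows with a match, of its 4 windows, and 2 of these 3 overlap and share the same match. The windows of Edn3 and Ednra held none.

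After 3 h of hypoxia the precursors of both peptides were up-regulated, and the receptors, the converting enzyme and the nitric oxide synthase were not called. Of the 133 pairs of a probe set and a region, 11 were higher at H3 than in controls and 0 were lower at an adjusted p under 0.05, where 0.157% of all pairs of any probe set were called higher and 0.153% lower. All 11 belonged to Adm (7) and Edn1 (4). With only the H3 and control arrays in the fit, 2 pairs were called higher (both of Edn1), without 1 replicate number 0 to 3 were, and the test named by the study's methods called 0 after adjustment. At H1, 2 pairs were higher, both of Edn1, and 0 were lower, against backgrounds of 0.0276% and 0.00254%. Both H1 calls were lost without any 1 replicate number, with only the H1 and control arrays in the fit, and in the methods' test after adjustment. Changes are differences of log2(intensity + 16), so that folds of dim probe sets are understated, and each region was fitted on its own 24 arrays with limma.

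No pair was called from R1 to R24. At an unadjusted p under 0.05, limma gave 9 pairs higher and 8 lower at R1 (3.47% and 5.83% of all pairs), and between 3 and 6 higher and 5 and 10 lower at each time from R3 to R24 (2.81% and 2.7% of all pairs over these times). After adjustment, 0.158% of all pairs were called higher and 0.25% lower at R1, 0.00634% and 0.00254% at R3, 0% and 0.000634% at R6, and 0% at R12 and R24. The test named by the study's methods gave 5 higher and 4 lower at R1 (3.26% and 4.74% of all pairs) and 34 in either direction over R3 to R24 (4.87%) before adjustment, and 0 after it. The median change over the 133 pairs was 0.03 at H1, -0.02 at H3 and -0.04 at R1.

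Adm, the adrenomedullin precursor, was measured by 2 probe sets that were both dim in control mice. Probe set 1416077_at lay at 4.18 to 44.1 (median 23.6) over the 21 control arrays, and 1447839_x_at, whose suffix means that some of its probes may match other transcripts, at 16.9 to 93.1 (median 38.9). At H3 the ranges over 21 arrays were 35.3 to 205 (median 71.9) for 1416077_at and 67.0 to 152 (median 90.1) for 1447839_x_at. With 1416077_at, the 3 H3 arrays lay above the 3 control arrays in each of the 7 regions (5.46% of all pairs did so), and 6 of the 7 changes passed the test.

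In pons-medulla, Adm 1416077_at read 138, 205 and 171 at H3, against 43.3, 27.2 and 35.5 in controls. This was the largest of its 7 regional changes, a log2 change of 1.87 (SE 0.22, fold 3.64, adjusted p = 0.000525). In midbrain it read 77.2, 148 and 105 at H3, against 14.2, 23.6 and 27.5 in controls, a log2 change of 1.72 (SE 0.23, adjusted p = 0.00086). In cerebellum it read 50.2, 61.4 and 66.0 at H3, against 4.81, 15.1 and 23.0 in controls, a log2 change of 1.35 (SE 0.19, adjusted p = 0.00115). In these hindbrain and midbrain tissues every H3 array lay well above every control array, and the cerebellar control arrays were close to the floor.

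The same probe set also rose in 3 of the 4 other regions. In hippocampus it read 49.8, 48.3 and 71.9 at H3, against 9.71, 17.1 and 13.9 in controls (log2 change 1.29, SE 0.19, adjusted p = 0.00307). In thalamus it read 90.0, 116 and 103 at H3, against 40.8, 44.1 and 37.3 in controls (log2 change 1.07, SE 0.12, adjusted p = 0.000359). The thalamus had the highest control level of the 7 regions. In cortex Adm read 59.7, 84.4 and 64.8 at H3, against 20.3, 30.4 and 27.0 in controls (log2 change 1.03, SE 0.20, adjusted p = 0.028). In striatum it read 35.3, 52.8 and 47.4 at H3, against 4.18, 7.44 and 23.6 in controls, and its log2 change of 1.19 (SE 0.26) missed the threshold (adjusted p = 0.0658). The cortical call was lost without any 1 of 5 arrays, with an adjusted p of up to 0.141 (without H3 replicate 2). The other 5 calls were kept when each array was left out in turn. The probe set was called in 0 to 3 regions without 1 replicate number, and in 0 regions with only the H3 and control arrays in the fit or by the methods' test after adjustment.

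Probe set 1447839_x_at, which has the higher mean intensity over all arrays and stands for Adm in the counts of regions, passed the test in pons-medulla alone. There it read 78.6, 152 and 112 at H3, against 21.3, 52.7 and 39.3 in controls (log2 change 1.28, SE 0.23, adjusted p = 0.0253), and this call was lost without any 1 of 4 arrays (adjusted p up to 0.176, without control replicate 1). Its other changes ran from 0.42 in thalamus, where 81.1, 133 and 111 at H3 stood against 65.9, 69.4 and 93.1 in controls and the groups overlapped, to 1.34 in striatum. The H3 arrays lay above the control arrays in 6 of 7 regions. Over the 49 changes of 7 regions and 7 time points, the 2 Adm probe sets had a Pearson correlation of 0.775, given as a description because the changes of a region share its control arrays.

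**Figure D1:**
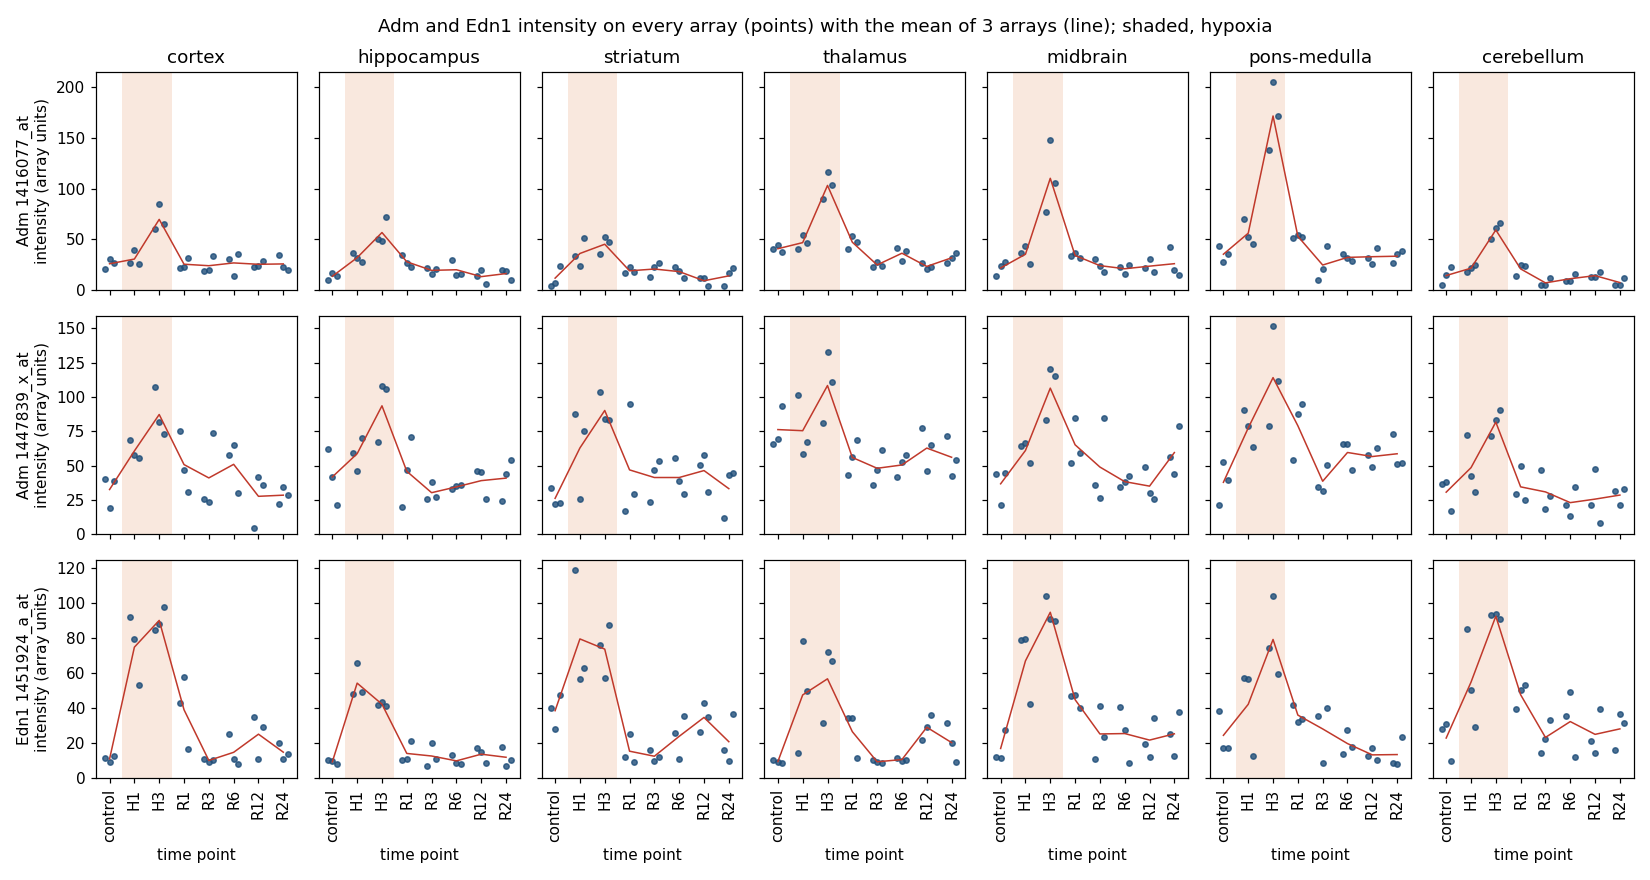
Intensity (array units, linear axis from 0) of Adm 1416077_at, Adm 1447839_x_at and Edn1 1451924_a_at on each array, by region and by time point from control to R24, with points for arrays and a line through the mean of 3 arrays. The highest mean of each panel lies at H1 or H3, in the shaded hypoxia period, with Adm 1416077_at highest in pons-medulla at H3 (138 to 205).

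Edn1, the endothelin-1 precursor, was close to the floor of the array in most control tissue and rose within the first hour. Its only probe set, 1451924_a_at, lay under 16 on 12 of 21 control arrays, 2 of 21 at H1 and 0 of 21 at H3, and its median intensity was 12.0 in controls, 56.4 at H1, 84.5 at H3 and 34.2 at R1. In cortex it read 91.7, 79.5 and 53.0 at H1 and 84.5, 87.7 and 97.8 at H3, against 11.4, 9.10 and 12.4 in controls. The log2 change was 1.73 at H1 (SE 0.27, adjusted p = 0.0223) and 1.97 at H3 (SE 0.27, fold 3.93, adjusted p = 0.00169). The cortex had the largest Edn1 change of the 7 regions at both times, and its H1 call was lost without any 1 of 5 arrays (adjusted p up to 0.237, without H1 replicate 1).

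In hippocampus Edn1 read 47.8, 65.9 and 48.9 at H1 and 42.0, 43.7 and 41.0 at H3, against 10.6, 9.56 and 7.91 in controls. Both changes passed the test, with a log2 change of 1.46 at H1 (SE 0.17, adjusted p = 0.000759) and 1.20 at H3 (SE 0.17, adjusted p = 0.00248). In midbrain it read 104, 90.6 and 89.4 at H3, against 12.0, 11.4 and 27.5 in controls (log2 change 1.78, SE 0.32, adjusted p = 0.016). In cerebellum it read 92.8, 93.5 and 90.8 at H3, against 28.0, 30.7 and 10.1 in controls (log2 change 1.52, SE 0.32, adjusted p = 0.0233). Within hippocampus and within cerebellum the 3 H3 arrays were nearly level, and the spread lay in the control arrays of midbrain and cerebellum. The midbrain call was lost without any 1 of 5 arrays (adjusted p up to 0.092) and the cerebellar call without any 1 of 4 (up to 0.115), in both cases most without a control array.

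In the other 3 regions the H3 arrays again lay above the control arrays, but the changes did not pass the test. In thalamus Edn1 read 31.7, 71.8 and 66.6 at H3, against 10.1, 9.46 and 8.90 in controls (log2 change 1.46, SE 0.32, adjusted p = 0.0918). In pons-medulla it read 74.0, 104 and 59.3 at H3, against 38.6, 17.4 and 17.5 in controls (log2 change 1.25, SE 0.34, adjusted p = 0.309). In striatum it read 76.1, 57.4 and 87.3 at H3, against 40.0, 28.3 and 47.2 in controls (log2 change 0.72, SE 0.28, adjusted p = 0.529). The striatum had the highest control level of Edn1 and the smallest change at H3. At H1 all 7 regional changes were above 0, from 0.44 in pons-medulla, where 57.4, 56.4 and 12.7 stood against 38.6, 17.4 and 17.5 in controls and overlapped them, to 1.73 in cortex.

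**Figure D2:**
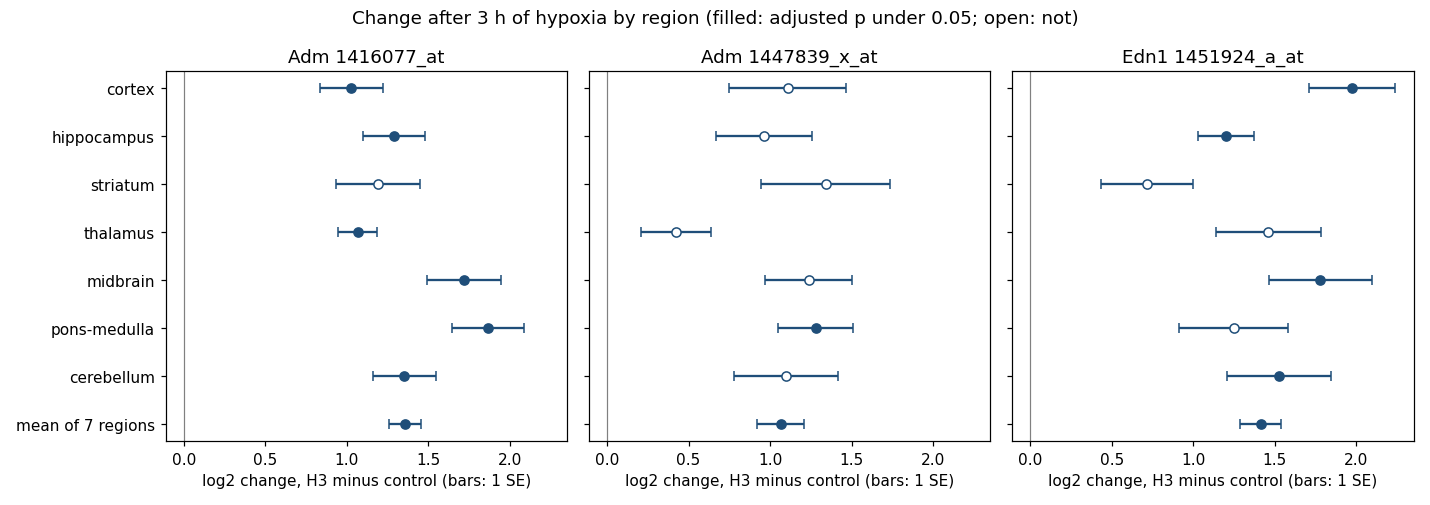
Log2 change (H3 minus control, on log2(intensity + 16), horizontal axis) of both Adm probe sets and of Edn1 in the 7 regions and in their mean, with bars of 1 SE, filled where the adjusted p was under 0.05. All changes lie above 0, with the largest for Adm 1416077_at in pons-medulla (1.87) and for Edn1 in cortex (1.97).

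Whether the regions differed in their response was asked with an interaction test over all arrays at H1, H3 and R1. This test had no term for mouse, although the regions of a time point came from the same mice. None of the 57 tests of the 19 probe sets passed after adjustment over all probe sets, where 0.00222% of probe sets passed at H1, 0.0133% at H3 and 0.0933% at R1. The smallest adjusted p was that of Edn1 at R1 (F = 3.89, adjusted p = 0.322), followed in F by Calcrl 1459536_at (F = 2.27) and Adm 1416077_at (F = 2.26) at H3, each with an adjusted p of 1. The larger Adm changes of pons-medulla and midbrain and the larger Edn1 change of cortex were therefore not shown to differ from those of the other regions.

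Because the regions of a time point came from the same mice, the change of the brain as a whole was tested on the mean of the 7 regions for each replicate number (n = 3 against 3). The labels do not say that a number marks the same mouse in all 7 regions. If it does not, each mean mixes mice, and the spread between the means may understate that between mice. In this mean, 3 probe sets were higher at H3 and 0 lower (1.2% and 2.16% of all probe sets), 1 was higher at H1 and 0 lower (0.0977% and 0.06%), and 1 was higher and 2 lower at R1 (1.65% and 3.83%). At an unadjusted p under 0.05, 3 of the 19 were higher and 3 lower at H3 (5.71% and 7.94% of all probe sets). From R3 to R24 limma called 0 of them at each time (0.355% and 0.426% of all probe sets at R3, 0.0266% and 0.0155% at R6, and 0% at R12 and R24), and 0 to 2 were higher and 0 to 3 lower at an unadjusted p under 0.05 (4.5% and 3.92% of all probe sets over these times).

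Adm 1416077_at had mean log2 values of 6.37, 6.75 and 6.64 at H3, against 5.03, 5.25 and 5.40 in controls, a change of 1.36 (SE 0.10, fold 2.56, adjusted p = 9.64e-08). Adm 1447839_x_at had 6.64, 6.93 and 6.83 at H3, against 5.85, 5.67 and 5.69 in controls, a change of 1.06 (SE 0.14, adjusted p = 0.00012). At H1 their changes were 0.46 (SE 0.10, adjusted p = 0.0755) and 0.54 (SE 0.14, adjusted p = 0.202), and neither passed the test. From H1 to H3 Adm went on rising with the first of these probe sets, as H3 minus H1 was 0.90 for 1416077_at (SE 0.10, adjusted p = 7.91e-05, 0.235% of probe sets called higher) and 0.53 for 1447839_x_at (SE 0.14, adjusted p = 0.102).

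Edn1 had already risen at H1. Its mean log2 values were 6.31, 6.35 and 5.81 at H1 and 6.40, 6.52 and 6.49 at H3, against 5.15, 4.98 and 5.04 in controls. The change was 1.10 at H1 (SE 0.13, fold 2.15, adjusted p = 0.00012) and 1.42 at H3 (SE 0.13, fold 2.67, adjusted p = 1.3e-06), and H3 minus H1 was 0.31 (SE 0.13), which did not pass (adjusted p = 0.374). The H1 call was lost without replicate 1 (adjusted p = 0.0967) or without replicate 2 (adjusted p = 0.0982). Whether Adm and Edn1 differed in timing was not tested. In single regions, H3 minus H1 passed for Adm 1416077_at in thalamus (0.92, SE 0.12, adjusted p = 0.0101) and cerebellum (1.00, SE 0.19, adjusted p = 0.0462) and for Edn1 in none (0.0124% of all pairs were called higher), and the calls were lost without any 1 of 18 arrays in cerebellum (adjusted p up to 0.197) and without 1 array in thalamus (0.0515, without H1 replicate 3).

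Both transcripts fell within the first hour of reoxygenation. In the mean of the regions, R1 minus H3 was -1.03 for Adm 1416077_at (SE 0.10, adjusted p = 8.45e-06), -0.76 for Adm 1447839_x_at (SE 0.14, adjusted p = 0.00643) and -0.97 for Edn1 (SE 0.13, adjusted p = 0.000246), the only 3 of the 19 probe sets called lower between these times (1.09% of all probe sets). In single regions, where 0.0555% of all pairs were called lower, Adm 1416077_at fell in thalamus (-0.91, adjusted p = 0.00371), midbrain (-1.30, adjusted p = 0.0428), pons-medulla (-1.43, adjusted p = 0.0253) and cerebellum (-1.04, adjusted p = 0.0141), and Edn1 fell in hippocampus (-0.97, adjusted p = 0.0345) and striatum (-1.53, adjusted p = 0.0339). Without single arrays these calls were lost 12 times of 24 in midbrain, 5 in pons-medulla, 3 in cerebellum and 0 in thalamus for Adm, and 9 in hippocampus and 6 in striatum for Edn1 (adjusted p up to 0.259, without midbrain H3 replicate 2). In the mean, the call of Adm 1447839_x_at was lost without any 1 replicate number (adjusted p 0.0557 to 0.141) and that of Edn1 without replicate 1 (0.0509). In pons-medulla, for example, Adm 1416077_at read 51.8, 54.6 and 52.5 at R1, against 138, 205 and 171 at H3.

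At R1 the Edn1 level lay above that of controls in the mean of the regions (0.44, SE 0.13, adjusted p = 0.043), but this call was lost under 7 of 18 alternatives (adjusted p up to 0.492). The sign of the change differed between regions. In cortex Edn1 read 42.9, 57.8 and 16.5 at R1, against 11.4, 9.10 and 12.4 in controls (0.95, SE 0.27, adjusted p = 0.165), and in midbrain 46.8, 47.6 and 40.1, against 12.0, 11.4 and 27.5 in controls (0.92, SE 0.32, adjusted p = 0.366). In striatum, by contrast, it read 12.2, 25.0 and 8.97 at R1, below the 40.0, 28.3 and 47.2 of controls (-0.81, SE 0.28, adjusted p = 0.299), and at R3 it read 16.1, 9.71 and 11.9 there (-0.92, SE 0.28, adjusted p = 0.462). None of these regional changes passed the test. Adm at R1 was 0.32 for 1416077_at (SE 0.10, adjusted p = 0.0605) and 0.30 for 1447839_x_at (SE 0.14, adjusted p = 0.261).

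From R3 to R24 neither Adm probe set nor Edn1 was called against controls. In the mean of the regions the Adm changes ran from -0.09 to 0.10 and the Edn1 changes from -0.06 to 0.19, with SEs of 0.10, 0.14 and 0.13. The medians over 21 arrays at R24 were 20.2 for Adm 1416077_at, 43.8 for Adm 1447839_x_at and 16.3 for Edn1, against 23.6, 38.9 and 12.0 in controls. Edn1 in thalamus read 21.5, 29.5 and 36.2 at R12, above the 10.1, 9.46 and 8.90 of controls, without passing the test (0.81, SE 0.32, adjusted p = 0.776).

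**Figure D3:**
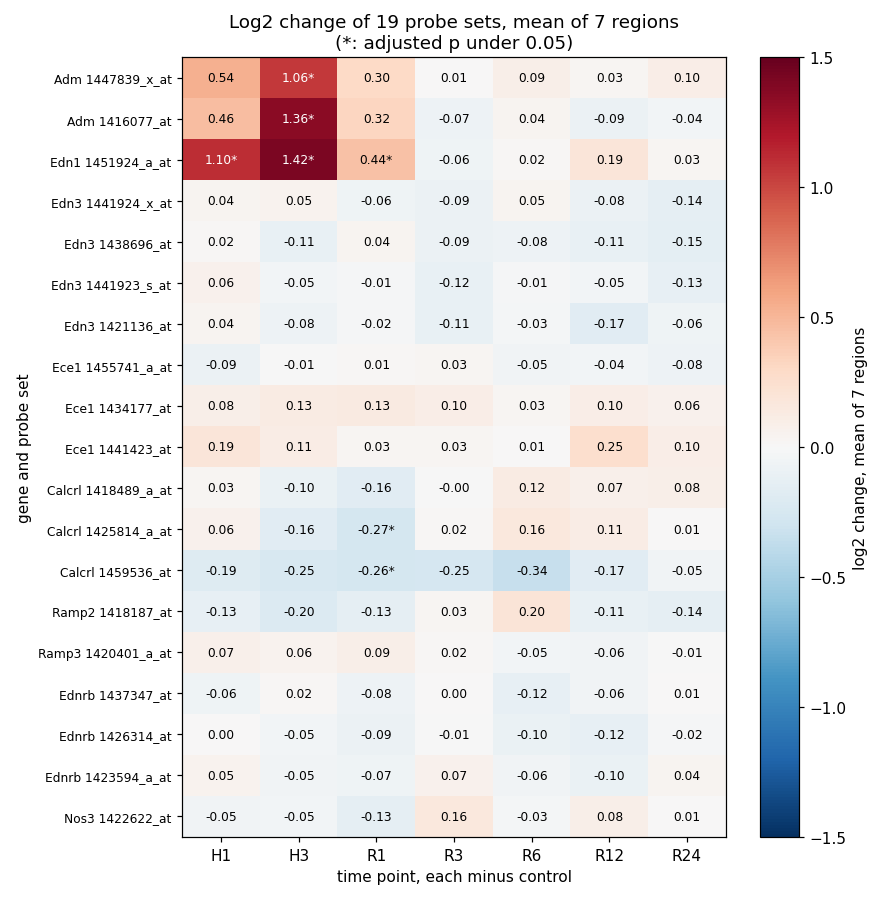
Log2 change from control (colour and printed value) of the 19 probe sets, in rows by gene, at the 7 time points, in columns, for the mean of the 7 regions, with an asterisk where the adjusted p was under 0.05. The Adm and Edn1 rows carry the changes at H1 and H3, and the other rows lie between -0.34 and 0.25.

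Edn3 and the converting enzyme were not called at any time. Edn3 1441924_x_at lay at 33.8 to 94.1 (median 68.8) at H3, against 37.7 to 93.0 (median 66.8) in controls, and its changes in the mean of the regions ran from -0.14 at R24 to 0.05 at H3. The other 3 Edn3 probe sets were dim, with 22.6 to 64.9% of all arrays under 16, and none of the 4 passed the test in any region or in the mean. Ece1 1455741_a_at lay at 103 to 304 (median 160) at H3 and 116 to 316 (median 158) in controls, and its change at H3 was -0.01 (SE 0.05). Ece1 1434177_at changed by 0.13 (SE 0.14) and the dim Ece1 1441423_at by 0.11 (SE 0.09) at H3, neither of which passed.

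The receptor genes of adrenomedullin were not called during hypoxia. Ramp2, measured by 1418187_at, lay at 143 to 360 (median 232) at H3 and 179 to 428 (median 277) in controls. Its change at H3 was below 0 in all 7 regions, from -0.39 in cerebellum to -0.06 in midbrain, with -0.20 in the mean (SE 0.07, adjusted p = 0.171), and at R6 it was above 0 in all 7 regions, from 0.04 in hippocampus to 0.47 in cerebellum, with 0.20 in the mean (SE 0.07, adjusted p = 0.532). In cerebellum Ramp2 read 267, 222 and 240.2 at H3 and 519, 396 and 449 at R6, against 319, 277 and 379.8 in controls. None of these changes passed the test. The 7 regions of a time point came from the same mice, so a sign shared by them is not a replicated result. Ramp3 changed by 0.06 at H3 (SE 0.06) and by no more than 0.09 in the mean at any time.

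Calcrl, the receptor shared by adrenomedullin and its relatives, was dim with all 3 probe sets and was called lower at R1 with 2 of them, in the mean of the regions. At R1, 1425814_a_at had mean log2 values of 5.14, 5.29 and 5.22, against 5.54, 5.44 and 5.46 in controls (-0.27, SE 0.07, adjusted p = 0.0265), and 1459536_at had 5.01, 5.05 and 5.01, against 5.37, 5.36 and 5.13 in controls (-0.26, SE 0.07, adjusted p = 0.0395). In this mean, 3.83% of all probe sets were called lower at R1, and 11.9% were lower at an unadjusted p under 0.05. At H3 neither 1425814_a_at (5.31, 5.33 and 5.31) nor 1459536_at (4.975, 5.10 and 5.05) was called. The third probe set, 1418489_a_at, changed by -0.16 at R1 (SE 0.09, adjusted p = 0.38), and its H3 values overlapped those of controls. Both R1 calls were lost when arrays were scaled by quantiles (adjusted p = 0.097 and 0.0699) or to their median (adjusted p = 0.103 and 0.0812) and without any 1 of the 3 replicate numbers, and 1459536_at lay under 16 on 35.1% of all arrays. Over the control means of the 7 regions, 1459536_at correlated at -0.299 with 1425814_a_at and at -0.392 with 1418489_a_at. Those 2 correlated at 0.878 with each other. With midbrain left out of the mean, the R1 change of 1459536_at was -0.16 (adjusted p = 0.299), while 1425814_a_at was still called (adjusted p = 0.0485). By region, 1425814_a_at was below controls in all 7 at R1, from -0.44 in thalamus to -0.08 in cerebellum, and at R6 it was above 0 in 6 of 7. These regions came from the same mice and are not separate replicates.

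Ednrb, the endothelin B receptor, was not called at any time. Its probe set 1437347_at lay at 310.3 to 756 (median 493) at H3 and 265 to 727 (median 471) in controls, with a change of 0.02 in the mean (SE 0.08). The other 2 Ednrb probe sets changed by -0.05 each at H3 (SE 0.05 and 0.06), and in the mean no Ednrb probe set changed by more than 0.12 in size at any time. Nos3, the endothelial nitric oxide synthase, lay at 60.9 to 106 (median 81.7) at H3 and 68.8 to 108 (median 87.1) in controls. Its change was -0.05 at H3 (SE 0.05), -0.13 at R1 (adjusted p = 0.0956) and 0.16 at R3 (adjusted p = 0.123), none of which passed the test.

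In control mice, Ramp3 was highest in thalamus, Ednrb was highest in cerebellum with each of its 3 probe sets, and Ece1 was highest there with 2 of 3. Of the 19 probe sets, 11 differed between the 7 regions by the F-test over the 21 control arrays, where 39.8% of all probe sets did. By the study's methods these arrays came from 3 mice, and the tests of control levels treated them as separate, with no term for mouse. The largest contrast was that of Ramp3. It read 955, 915 and 883 in control thalamus, against 267, 266 and 222 in midbrain, 205, 177 and 226 in cerebellum, and 44.9, 48.0 and 62.4 in pons-medulla. The thalamus exceeded the next region, midbrain, by 1.81 (SE 0.18, adjusted p = 7.85e-06), and the F-test gave an adjusted p of 2.61e-10.

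Below the thalamus the order of Ramp3 was midbrain, cerebellum, cortex, striatum, hippocampus and pons-medulla. Neighbours in this order differed between cerebellum and cortex (0.55, SE 0.18, adjusted p = 0.0326) and between hippocampus and pons-medulla (0.85, SE 0.18, adjusted p = 0.00213), and the others did not differ beyond their spread. The thalamus was still highest and pons-medulla lowest at H3, when Ramp3 read 871, 949 and 858 in thalamus and 81.5, 67.6 and 48.3 in pons-medulla.

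Ramp2 had another order, with hippocampus highest (368, 331 and 428, 0.52 above the mean of the other regions, SE 0.12, adjusted p = 0.0039) and striatum lowest (199, 179 and 184, -0.57, SE 0.12, adjusted p = 0.00144). No neighbouring regions in the Ramp2 order differed beyond their spread. All 3 Ednrb probe sets were highest in cerebellum and the F-test was passed by each (adjusted p = 0.0355, 2.67e-05 and 3.14e-05). With none of them did cerebellum exceed the next region beyond the spread (0.11 to 0.22, adjusted p = 0.527 to 0.622). With 1426314_at, Ednrb read 268, 254 and 255 in cerebellum against 133, 115 and 153 in cortex, and the step in its order lay between midbrain and striatum (0.46, SE 0.13, adjusted p = 0.0142), with hindbrain, midbrain and thalamus above striatum, hippocampus and cortex. The other 2 probe sets put the same regions above the same others, but the step between midbrain and striatum did not pass with them. Striatum minus midbrain was -0.42 with 1437347_at, of similar size with a wider spread (SE 0.22, adjusted p = 0.219). With 1423594_a_at midbrain exceeded striatum by 0.07 (SE 0.16, adjusted p = 0.828).

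Ece1 was highest in cerebellum with 1455741_a_at (224, 316 and 243, 0.72 above the mean of the other regions, SE 0.10, adjusted p = 1.51e-05) and with the dim 1441423_at (28.5, 38.2 and 27.7, 0.77, SE 0.12, adjusted p = 4.4e-05). Cerebellum exceeded the next region by 0.31 with 1455741_a_at (striatum, adjusted p = 0.0863) and by 0.56 with 1441423_at (thalamus, adjusted p = 0.0113). In controls 1434177_at had another order, with means of 194 in cortex, 186 in striatum and 175 in cerebellum, and did not pass the F-test (adjusted p = 0.208). Its cerebellar controls were uneven (89.0, 228 and 208), and its mean was highest in cerebellum at each time from H1 to R24. Among the ligands, Edn1 was highest in striatum (40.0, 28.3 and 47.2, 0.82 above the others, SE 0.17, adjusted p = 0.00204), and Adm 1416077_at was highest in thalamus (40.8, 44.1 and 37.3, 0.70 above the others, SE 0.18, adjusted p = 0.0183) and lowest in striatum. Neither exceeded its next region, pons-medulla, beyond the spread (0.455, adjusted p = 0.169 for Edn1, and 0.155, adjusted p = 0.838 for Adm). Adm 1447839_x_at, also highest in thalamus, did not pass the F-test (adjusted p = 0.0634). Calcrl 1425814_a_at, lowest in striatum and cortex, and the dim Edn3 1438696_at, lowest in striatum, also passed (adjusted p = 0.0275 and 0.024). Nos3 did not, at 68.8 to 108 over all control arrays (adjusted p = 0.24).

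**Figure D4:**
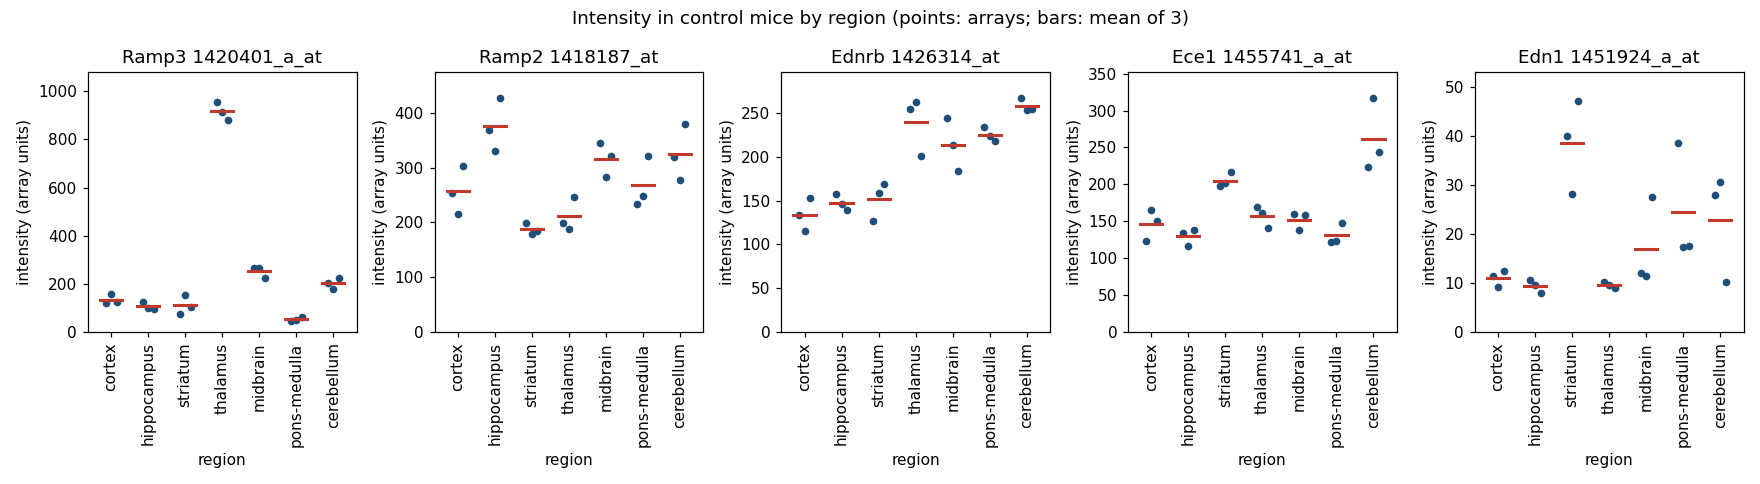
Intensity (array units, linear axes from 0) of Ramp3, Ramp2, Ednrb, Ece1 and Edn1 in control mice by region, with points for the 3 arrays and bars for their mean. The probe set plotted for a gene is the one with the smallest p in the F-test between regions. The brightest Ednrb probe set, 1437347_at, is not plotted (F-test adjusted p = 0.0355). Ramp3 stands out in thalamus (883 to 955), Ednrb and Ece1 are highest in cerebellum with the probe sets plotted (1426314_at and 1455741_a_at), Ramp2 in hippocampus and Edn1 in striatum.

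Other genes of the pathway were not called beside the ligands. Of the relatives of the family, which include Adm2, Calcb, Calcr, Ramp1, Ackr3, Edn2 and Ece2, 11 of 12 were measured, and of the nitric oxide and cyclic GMP genes, from Nos1 and Nos2 to the guanylate cyclases and Pde5a, 18 of 18. Of other vasoactive systems (angiotensin, kinin, prostanoid, neuropeptide Y and others), 18 of 21 were measured. In the mean of the regions, none of these 47 genes passed the test at H1, H3 or R1, with median changes at H3 of -0.01, 0.01 and -0.01 for the 3 lists, against -0.01 over all probe sets. At an unadjusted p under 0.05, 0, 0 and 1 were higher and 0, 0 and 1 lower at H3 (5.71% and 7.94% of all probe sets). In single regions 0 of 77, 126 and 126 pairs were called at each of these times, and at H3 4, 3 and 2 were higher and 2, 1 and 4 lower before adjustment (3.3% and 4.18% of all pairs).

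The closest to the threshold at H3 was Ptger4, a prostaglandin E2 receptor, at -0.27 at H3 (SE 0.08, adjusted p = 0.0582). At R1 it was Npy1r, a neuropeptide Y receptor, at -0.16 (SE 0.05, adjusted p = 0.0719).

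The transcripts whose 49 changes ran most like those of Adm 1416077_at were H3f3b, Errfi1, Klf4, Txnip and Depp1 (Pearson r = 0.764 to 0.817), and those most like Adm 1447839_x_at were Btg1, Crat, H3f3b, Apold1 and Septin6 (r = 0.715 to 0.738). Those most like Edn1 were Depp1, Smad7, Klf4, Zfp36 and Ier3 (r = 0.739 to 0.793). They were drawn from 19253 probe sets with a mean intensity of at least 50, and the changes compared share arrays and controls. At H3 the regional changes of Depp1 ran from 2.64 to 3.12 and those of H3f3b from 1.15 to 1.77, while those of Septin6 ran from -0.01 to 0.16. The likeness thus covers shape and not size. Edn1 itself had a correlation of 0.566 with Adm 1416077_at and of 0.436 with Adm 1447839_x_at.

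In tissue samples, fewer cells of a type and less RNA per cell cannot be told apart. The dissected regions held their markers, since 29 of 31 regional marker genes were highest in the region they mark (the exceptions were Rorb, highest in thalamus, and Wfs1, highest in striatum). The summed intensity of 11 measured endothelial markers of 12 was 998 to 1350 at H3 and 983.8 to 1407 in controls over the regions, and 0 of the 11 were called in the mean at H1, H3 or R1. That of 11 mural markers was 1502 to 2413 at H3 and 1519 to 2202 in controls, with Kcnj8 alone higher at R1 (0.44, adjusted p = 0.014). Choroid plexus markers, 6 measured of 7, varied widely between arrays. Their sum was 311 to 7022 at H3 and 423 to 6012 in controls, and in thalamus 536 to 5029 at H3 and 572 to 797 in controls, with none of the 6 called. Their part in the Adm and Edn1 changes was not tested. Opalin, 1 of the oligodendrocyte markers, was higher in the mean at H3 (0.44, adjusted p = 0.0445) and R1 (0.56, adjusted p = 0.00644). Of all probe sets, 1.2% and 1.65% were called higher at these times. In single regions, 1 of 42 pairs of the oligodendrocyte markers was called at H3 and 1 at R1, both Opalin in cortex. Before adjustment 6 were higher and 0 lower at H3, and 8 and 0 at R1. The median changes of these markers ran from 0.004 to 0.16 at H3 and from 0.006 to 0.17 at R1. Array values under 16 made up 23.3 to 30.2% of each array, and each array correlated at 0.973 to 0.984 with the other 2 of its group.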

How the data were processed

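Total RNA of each brain region was hybridised to Affymetrix Mouse Expression 430 2.0 arrays. The authors deposited 1 linear intensity per probe set and array, with the same mean on every array once the highest and lowest 2% were left out. The submitters' processing notes name GCOS 1.3. According to the study's methods, signals were summarised by GCRMA, quantile-normalised and expressed relative to controls. These values do not show that treatment, and the summary method is not given in the sources used here.

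Array controls (64) were left out, leaving 45037 probe sets (34945 with 1 gene symbol, 932 with several, 9160 with none). Tests used limma 3.58.1 in R 4.3.3 on log2(intensity + 16), with 8 group means per region, and Benjamini-Hochberg adjustment over all probe sets of a region and time (called at adjusted p under 0.05). The mean of the 7 regions used 24 means, the interaction all arrays and the control levels 21 arrays. The regional test was also run on simulated arrays with independent noise and known added changes. These arrays did not model mice shared between regions, so they cannot speak to that limit.

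All member probe sets were named, as were list genes passing in the mean of the regions and the 5 genes most like Adm and Edn1 (those most like Adm 1416077_at were added after its values were seen). Members, lists and tests were chosen with earlier results of these data known. Replicate numbers in the labels were not stated to mark mice, and the deviations of same-numbered control and treated arrays correlated at -0.221 to 0.344 (median 0.131, above 0.1 in 87 of 147 pairs). The numbers were not used as a block in the tests reported, because not every pair lay above 0.1. That rule does not settle whether the numbers pair the arrays, and fits with a block are given at the end. The p-values measure the spread between arrays within groups, pooled over all groups of a fit and shared in part over probe sets by limma. With 3 arrays in each group, their precision is limited. Alternatives covered the pseudocount, scaling, dim probe sets, variance model, replicate block, left-out arrays and regions, a fit of each time point with the controls alone and the t-test of the methods.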

Additional observations from a re-analysis of the deposited data

Results flagged for a closer look

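In the test of whether the 7 regions differed in their change from control, 3 of 57 tests had an unadjusted p under 0.05 (4.47% of all such tests did), and none passed after adjustment. Edn1 at R1 had F = 3.89 (adjusted p = 0.322), with changes from -0.81 in striatum to 0.95 in cortex. Adm 1416077_at at H3 had F = 2.26 (adjusted p = 1), with changes from 1.03 in cortex to 1.87 in pons-medulla. Calcrl 1459536_at at H3 had F = 2.27 (adjusted p = 1), with changes from -0.84 in midbrain to 0.15 in pons-medulla on a probe set that was dim throughout.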

How the results depend on the processing

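Among the single results followed, none that was called in the main fit or under an alternative changed sign there. Sign changes of results called in neither were not counted. The higher Adm and Edn1 levels at H3 in the mean of the regions were called under all alternatives that tested them (keeping only probe sets above the median drops Adm 1416077_at and Edn1), with an adjusted p of at most 0.0217 for Adm 1447839_x_at, 0.00106 for Adm 1416077_at and 0.00293 for Edn1. The median change of all probe sets stayed within 0.1 under each scaling.

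Counts of regional calls depended on the setting. With a pseudocount of 1, 1 pair was called higher at H1 and 7 at H3, Adm 1447839_x_at in 0 regions, Edn1 in 2 and 1 probe set lower in the mean at R1. With 4, Edn1 was called in 2 regions and 1 probe set was lower in the mean at R1. With 32, Adm 1447839_x_at was called in 2. Quantile and median scaling each gave 2 higher and 0 lower in the mean at R1. Keeping only probe sets above the median, which drops Edn1 and Adm 1416077_at, gave 0 pairs at H1 and 3 at H3, in the mean 0 higher at H1, 1 at H3 and 0 at R1 with 0 lower at R1, and 6 control levels that differed. The trend and robust options called Adm 1447839_x_at in 2 regions and 1 lower in the mean at R1.

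Fitting a time point with the controls alone gave 0 pairs at H1 and 2 at H3, with 0 regions for either Adm probe set and 2 for Edn1. The methods' t-test gave 7 higher and 2 lower pairs at H1, 21 and 5 at H3, 5 and 4 at R1 and 34 at R3 to R24 before adjustment (Adm 1447839_x_at in 5 regions, Edn1 in 7), and 0 in all of these after it. In the main limma fit, by contrast, Adm 1416077_at was called in 6 regions. The cause of the difference between these fits and tests was not tested.

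The replicate block (the replicate number as a fixed term) gave 2 higher in the mean at R1, and as a random block over all arrays 3 higher at H1, 1 lower at H3 and 2 higher at R1. Regions of the same time point and number correlated above 0.1 in 207 of 504 pairs, and same-numbered control and treated arrays of a region in 87 of 147. These values do not settle whether the numbers pair the arrays. Without 1 replicate number, pairs called higher were 0 at H1 and 0 to 3 at H3, with Adm 1447839_x_at and Edn1 in 0 regions and Adm 1416077_at in 0 to 3, in the mean 0 to 1 higher at H1, 3 at H3, 0 to 1 higher and 0 lower at R1, and 7 to 8 differing control levels. Without 1 array, they were 1 to 3 at H1, 10 to 12 at H3 and 0 to 1 at R1, with Adm 1447839_x_at in 0 to 2 regions, Edn1 in 3 to 5 and Adm 1416077_at in 5 to 7. Leaving out a region from the mean gave 2 higher at H1 (without cortex), 1 lower at H3 (without pons-medulla), and at R1 0 higher (without hippocampus, thalamus, midbrain or cerebellum) and 0 (without hippocampus) or 1 lower (without cortex, midbrain, pons-medulla or cerebellum).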
